A study of Glycine max with 8 samples.

Results

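Heart-only sites of a soybean WOX9-like protein that lie beside a site common to both embryo stages were examined in whole soybean seeds (Glycine max, cultivar Williams 82). Peaks of different libraries were joined into 1 region when the overlap made up 50% or more of the shorter one. A region was kept when both heart lists held it and neither globular list did, and when a region of all 4 lists (a shared region) lay within 2000 bp, edge to edge. The rule kept 3073 of the 75046 regions of the 4 lists, or 33.2% of the 9254 heart-only regions. Across all regions, 12.3% were heart-only by this rule, 36.3% were shared, and 4.09% were heart-only and met the limit on distance. The 3073 flanking regions were thus chosen by their calls, and their strength and width are given as a description.

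The heart-stage seeds measured 1.7 to 2.1 mm in length and the globular-stage seeds 1.0 to 1.5 mm. For each stage, chromatin of greenhouse-grown seeds fixed with formaldehyde was pulled down with a polyclonal rabbit antibody, raised to a WOX9-like peptide, and sequenced (ChIP-seq) in 2 libraries, beside 2 input libraries. Whole seeds hold seed coat and endosperm beside the embryo, so a peak cannot be tied to one of these tissues, and a site used in fewer cells cannot be told apart from a site used less in each cell. Whether the 2 libraries of a stage were made from different plants is not stated, so their spread may be technical.

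WOX9-like proteins belong to the WUSCHEL-related homeobox (WOX) family, plant transcription factors that bind DNA through a homeodomain. In Arabidopsis, WOX9 is known for its part in the division of early embryo cells and in the growth of the shoot meristem. A ChIP-seq peak marks a stretch of DNA recovered with the antibody more often than its surroundings, and the fold enrichment at its summit measures how much more often. Neighbouring peaks can belong to 1 regulatory stretch with several contacts. Absence from a list is not proof that the protein was absent there.

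The lists held 60537 and 50579 peaks in heart replicates 1 and 2, against 46027 and 44581 in globular replicates 1 and 2. The read depth is unknown, since the files give no counts. The globular libraries ranked the shared regions less alike than the heart libraries: the Spearman correlation of fold over the 27270 shared regions was 0.949 between the heart replicates and 0.660 between the globular replicates (across regions, which are not independent). In globular replicate 2 the peak names carry the words BR1 and Input, which no label explains. Without that library the rule kept 6167 regions, without globular replicate 1 it kept 4336, and without heart replicates 1 and 2 it kept 4319 and 6876. Fewer libraries then set both the members and the shared regions, so these counts do not test the 3073. With 2 libraries a stage, a two-sided exact permutation test over the 4 libraries cannot give less than 0.333, so the values below are compared without a p.

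The flanking regions were weak and narrow heart sites. Their median fold enrichment was 4.13 in heart replicate 1 and 3.72 in heart replicate 2, a mean of 3.92 ± 0.290 (SD, n = 2 libraries). The shared regions had medians of 8.31 and 7.03 in the same libraries. The fold of the flanking regions ran from 2.07 to 18.9 in replicate 1 and from 2.22 to 13.5 in replicate 2, and the middle 50% of them lay between 3.56 and 4.89 in replicate 1 and between 3.33 and 4.21 in replicate 2. The median −log10 p at the summit was 11.0 and 10.1. Ranked within each list by p, with 0 as the strongest, they had a median percentile of 64.3 and 76.5, against 23.7 and 28.7 for the shared regions. In heart replicate 1, 45 of the flanking regions (1.46%) were in the strongest 25% of the list and 914 (29.7%) in the weakest 25%. In heart replicate 2 these numbers were 13 (0.423%) and 1647 (53.6%).

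Their peaks were 392 bp wide (median) in heart replicate 1 and 331 bp in heart replicate 2, against 673 and 576 bp for the shared regions. Stronger members tended to be wider, with a Spearman correlation of fold and width of 0.403 and 0.375 across the 3073 regions. The summit of a member differed by a median of 42 bp between the heart replicates, and that of a shared region by 27 bp. The fold of the members correlated less between the heart replicates than that of the shared regions (Spearman 0.603 over 3073 regions, against 0.949 over 27270). Both correlations run across regions of the same 2 libraries, and the members span a narrower range of fold.

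Flanking regions hardly differed in strength or width from the 6181 heart-only regions farther from a shared region. Those had a median fold of 4.22 and 3.72 in heart replicates 1 and 2, a median width of 391 and 332 bp, and a median percentile of 63.1 and 74.8. On average over the 20 chromosomes, the median fold of flanking regions minus that of farther ones was -0.05 ± 0.13 in replicate 1 and -0.07 ± 0.14 in replicate 2 (SD, n = 20 chromosomes), with lower flanking values on 11 and 10 chromosomes and higher ones on 6 and 6. The strong end was thinner among the flanking regions. In replicate 1, the 95th percentile of fold was 6.41 for flanking and 7.17 for farther regions, and in replicate 2 it was 5.37 and 5.76. Across the limit of 2000 bp there was no step: the 92 regions in the last 100 bp inside it had a median fold of 4.22 and 3.57, and the 94 in the first 100 bp outside it had 4.13 and 3.72.

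**Figure D1:**
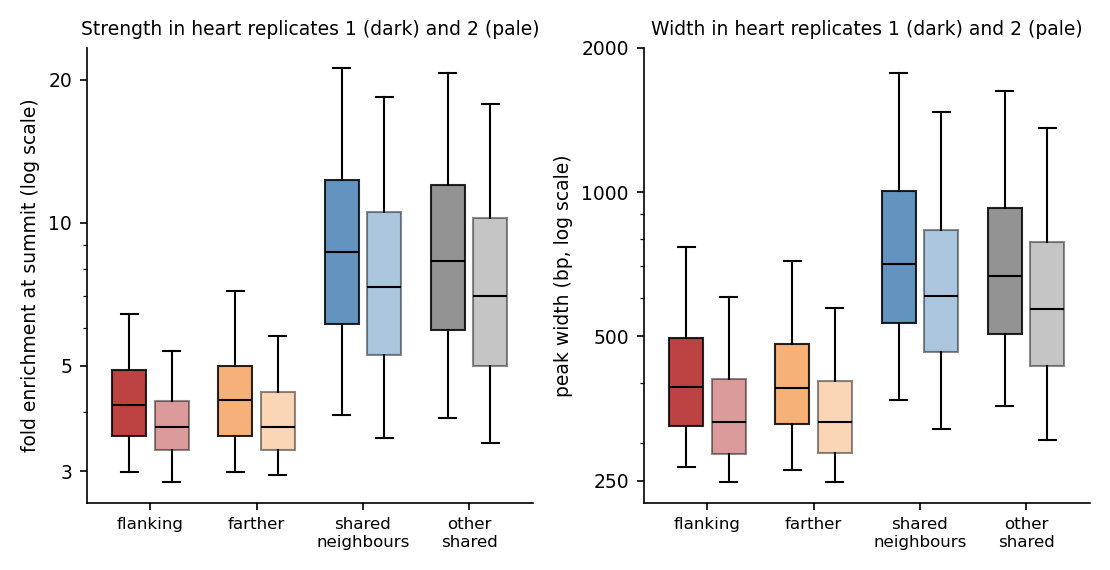
Fold enrichment at the summit (left) and peak width in bp (right), both on log axes, in heart replicate 1 (dark) and 2 (pale) for flanking heart-only regions, heart-only regions farther away, the shared neighbours of the flanking regions and the shared regions with no heart-only region within 2000 bp. Boxes span the middle 50% with the median, and whiskers the 5th to 95th percentile; flanking and farther regions sit together at medians of 3.72 to 4.22, below both sets of shared regions at 7.03 to 8.69.

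The rule set the limit of 2000 bp, and within it most members did not touch their shared neighbour. The median distance was 728 bp, and 50% of the members lay between 339 and 1267 bp away. Only 40 touched or overlapped the neighbour by less than the joining share, 518 lay 1 to 250 bp away, 579 lay 251 to 500 bp away and 801 lay 501 to 1000 bp away. Between summits, the median distance was 1439 bp in heart replicate 1 and 1444 bp in heart replicate 2. In 367 cases (11.9%) another region, which could be a further member, lay wholly between the member and its neighbour. A globular peak overlapped 58 members (1.89%) by less than the joining share, and a further 80 had a globular peak within 100 bp. The other members were clear of globular peaks by over 100 bp, and the median distance to the nearest globular peak was 691 bp.

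Strength and width of the members varied little with distance. In heart replicate 1 the median fold was 4.03 at 1 to 250 bp and 4.13 in each of the 4 bins from 251 to 2000 bp. In heart replicate 2 it was 3.62 at 1 to 250 bp and 3.72 at 1501 to 2000 bp. The 40 members that touched their neighbour had the widest peaks, with medians of 478.5 and 367.5 bp. The Spearman correlation between the fold of a member and its distance was 0.0259 and 0.0241 in replicates 1 and 2.

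Heart-only regions were denser beside shared regions than farther out. On the 20 chromosomes there were 40.6 heart-only regions per Mb of DNA lying 1 to 1000 bp from the nearest shared region and 30.3 per Mb at 1001 to 2000 bp. The density was 21.5 per Mb at 2001 to 4000 bp and 15.02 per Mb at 4001 to 10000 bp. In bins of 250 bp it peaked at 48.3 per Mb at 251 to 500 bp. In the first bin, 1 to 250 bp, it was 39.7 per Mb. Regions called in a single library also thinned out with distance. They had 82.5 per Mb at 1 to 1000 bp, 64.9 at 1001 to 2000 bp, 47.8 at 2001 to 4000 bp and 37.1 at 4001 to 10000 bp. Globular-only regions, which both globular lists and neither heart list held (4.62% of all regions), followed a flatter course, with 11.2 per Mb at 1 to 1000 bp, 10.8 at 1001 to 2000 bp, 9.92 at 2001 to 4000 bp and 7.01 at 4001 to 10000 bp.

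**Figure D2:**
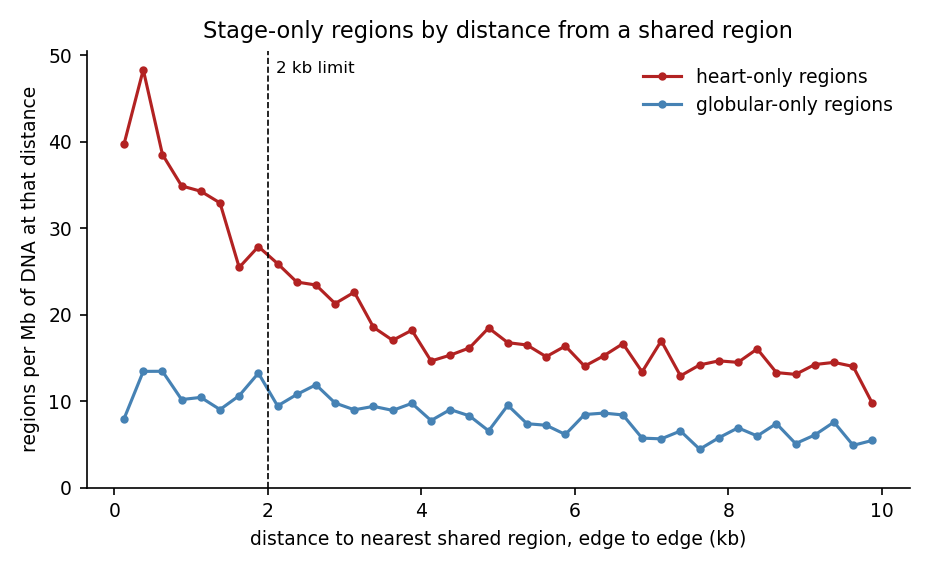
Number of heart-only (red) and globular-only (blue) regions per Mb of DNA at each distance from the nearest shared region, in bins of 250 bp up to 10 kb. The heart-only density was highest at 48.3 per Mb and lay between 9.77 and 16.1 per Mb over the last 8 bins; the globular-only density was at most 13.5 per Mb and lay between 4.91 and 7.59 over the last 8 bins. The dashed line marks the limit of 2000 bp.

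Of heart-only regions, 33.2% lay within 2000 bp of a shared region, inside the range of the other classes, 22.9% to 42.4%. These differences were not tested. Over all regions the share was 36.0%, counting for shared regions another one. It was 33.8% of the 10084 regions called in heart replicate 1 alone and 36.5% of the 2141 called in heart replicate 2 alone. It was 27.0% of globular-only regions, 22.9% of the 7608 regions of globular replicate 1 alone, 36.4% of the 1586 of globular replicate 2 alone and 42.4% of the shared regions. Of the bases outside shared regions, 9.08% lay within the same distance of one.

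The members were spread over the genome, with 94 on chromosome 16 to 230 on chromosome 13 and 13 on unplaced scaffolds. The flanking share of heart-only regions was between 27.6% (chromosome 16) and 37.7% (chromosome 6). It exceeded the share of bases near a shared region on 20 of 20 chromosomes, by 23.8 ± 2.30 points (SD, n = 20). An excess over bases was not particular to heart-only regions. Over the genome the share was 36.0% for all regions and 22.9% to 42.4% by class, against 9.08% of bases. Shared regions were densest on chromosome 13, with 43.7 per Mb, and there 34.9% of 659 heart-only regions flanked one. There were 8.71 members per 100 shared regions on chromosome 20 and 13.3 on chromosome 6, with a median of 11.3 over the chromosomes.

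**Figure D3:**
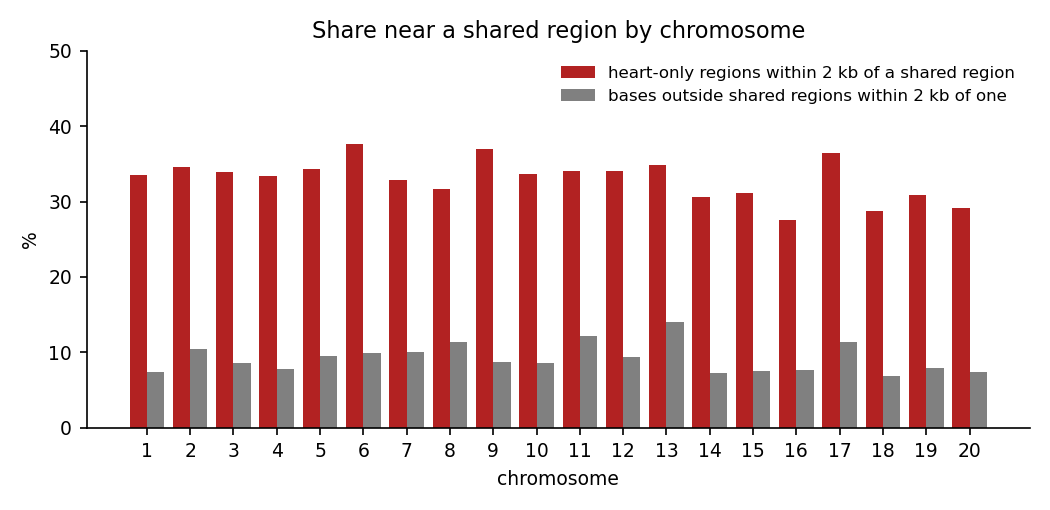
Percent of heart-only regions within 2000 bp of a shared region (red) and percent of bases outside shared regions within 2000 bp of one (grey) on each of the 20 chromosomes. The red bars lie between 27.6% and 37.7% and the grey bars between 6.91% and 13.98%. Regions of all classes together, not drawn, had a share of 36.0% over the genome.

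Members lay toward the chromosome ends somewhat more often than the other heart-only regions. Taking 20% of its extent from each end as the outer part of a chromosome, that part held 75.8% of the members, 69.5% of the farther heart-only regions and 71.3% of the shared regions (means over 20 chromosomes). Members exceeded the farther regions by 6.29 ± 6.10 points (SD, n = 20), being higher on 17 of 20 chromosomes, and the shared regions by 4.52 ± 3.84 points, being higher on 18 of 20. The limit on distance itself favours stretches rich in shared regions: 16.0% of the bases in the outer parts and 4.60% of those in the inner part lay within 2000 bp of one. Within the outer parts 35.0% of 6481 heart-only regions flanked a shared region, and within the inner part 28.9% of 2731. This order was not particular to heart-only regions. Of globular-only regions, 28.3% of 2502 in the outer parts and 23.7% of 946 in the inner part flanked a shared region.

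Each member was set against its nearest shared region, its neighbour. There were 2885 neighbours, of which 2705 had 1 member, 172 had 2 and 8 had 3. Of the members, 446 lay between shared regions on both sides, 1284 had shared regions within 2000 bp at lower coordinates only and 1343 at higher coordinates only. In 2471 cases there was a single shared region within 2000 bp, in 555 there were 2, and in 47 there were 3 or 4. Members between shared regions on both sides were as strong as the rest, with a median fold of 4.13 and 3.62 in heart replicates 1 and 2, against 4.13 and 3.72 for members with shared regions on 1 side.

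The member was usually the weaker site of the pair. By the rule, both globular lists missed the member and all 4 lists held the neighbour. Whether this sets the order was not tested. As whole classes, members and shared regions already differed in this direction. Their median folds were 4.13 against 8.31 in heart replicate 1 and 3.72 against 7.03 in heart replicate 2. The fold of the member divided by that of its neighbour in the same list had a median of 0.482 in heart replicate 1 and 0.508 in heart replicate 2, a mean of 0.495 ± 0.0186 (SD, n = 2 libraries). The neighbour had at least 2 times the fold of the member in 1615 pairs in replicate 1 and in 1497 pairs in replicate 2. Widths stood in a median ratio of 0.564 and 0.569. A member was stronger than its neighbour in both heart libraries in 154 pairs (5.01%), in replicate 1 alone in 112 and in replicate 2 alone in 113. In those 154 pairs, chosen by the heart folds, the neighbour had a median fold of 3.84 and 3.43 in the heart libraries, and also a lower median than all neighbours in the globular libraries, 4.995 and 3.12 where all neighbours had 5.70 and 4.53. Among these pairs, a strong neighbour did not come with a strong member. The Spearman correlation of the folds was 0.0391 in replicate 1 and 0.0441 in replicate 2 across 3073 pairs, some of which share a neighbour. Sites called in all 4 lists cannot be members, and the members span a narrow range of fold. The correlation therefore cannot show whether the strengths of neighbouring sites are related in general.

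**Figure D4:**
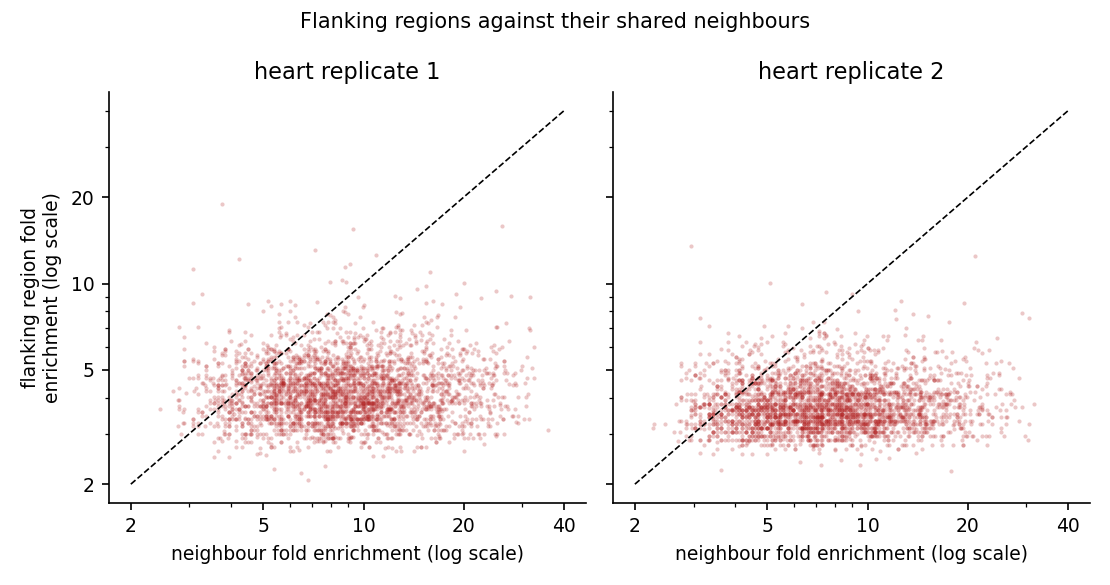
Fold enrichment of each flanking region (vertical, log scale) against that of its nearest shared region (horizontal, log scale) in heart replicates 1 and 2, 1 point per flanking region. The dashed line marks equal fold; 266 points in replicate 1 and 267 in replicate 2 lie above it, and the cloud shows no slope (Spearman 0.0391 and 0.0441).

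In the heart libraries the neighbours were stronger and wider than shared regions without a nearby heart-only region, and in the globular libraries about equal. Their median fold was 8.69 in heart replicate 1 and 7.32 in heart replicate 2, against 8.31 and 7.03 for the 23800 shared regions with no heart-only region within 2000 bp. In globular replicates 1 and 2 the neighbours had a median fold of 5.70 and 4.53, against 5.80 and 4.58. The difference in fold was 0.34 ± 0.06 over the heart libraries and -0.07 ± 0.03 over the globular libraries (mean ± SD, n = 2 each). Folds are read within a list here, since lists of different libraries may rest on different backgrounds. Strength above that of the 23800 regions was not particular to the neighbours. Shared regions with another shared region within 2000 bp had a median fold of 8.88 and 7.51 in heart replicates 1 and 2. In globular replicates 1 and 2 they had 5.98 and 4.90. The medians of the neighbours were above those of the 23800 regions on 17 of 20 chromosomes in each heart library. In globular replicates 1 and 2 they were above on 10 and 7 of 20. The chromosomes share the same libraries and are not independent replicates. The neighbours were picked by calls of these same heart and globular lists, so the differences in fold and width are a description.

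Widths showed the same order. The neighbours were 707 and 607 bp wide in heart replicates 1 and 2, against 668 and 571 bp for shared regions with no heart-only region near. The difference was 37.5 ± 2.12 bp (SD, n = 2 libraries). In globular replicates 1 and 2 they were 468 and 568 bp wide, against 471 and 568 bp. The neighbours were wider on 19 and 17 of 20 chromosomes in the heart libraries, and on 8 and 10 of 20 in the globular libraries. Shared regions with another shared region within 2000 bp were 714 and 609 bp wide in heart replicates 1 and 2. In globular replicates 1 and 2 they were 487 and 602 bp wide. By width in heart replicate 1, the widest 25% of the shared regions had a heart-only region within 2000 bp in 15.2% of cases and the narrowest 25% in 10.8%. In heart replicate 2 these shares were 14.3% and 10.5%. By width in globular replicate 1 they were 13.1% and 12.7%, and in globular replicate 2 they were 13.2% and 12.2%. By strength the spread was smaller: 13.6% in the strongest and 11.5% in the weakest 25% by heart replicate 1, and 12.6% and 12.7% in globular replicate 2.

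**Figure D5:**
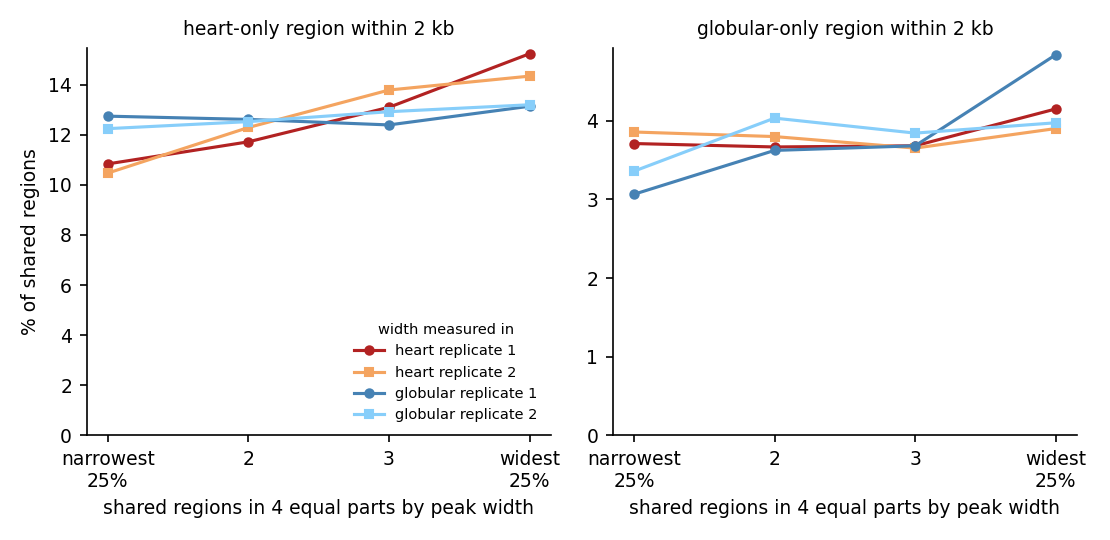
Percent of shared regions with a heart-only region (left) or a globular-only region (right) within 2000 bp, with the shared regions in 4 equal parts from the narrowest to the widest and width measured in heart replicates 1 and 2 and globular replicates 1 and 2. On the left the share goes up from 10.8% to 15.2% and from 10.5% to 14.3% by heart width and stays between 12.2% and 13.2% by globular width; on the right it goes up most by width in globular replicate 1, from 3.07% to 4.84%.

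Shared regions beside a globular-only region were the mirror case by the rule, but the flanking regions themselves differed. The 937 globular-only ones had a median fold of 9.05 and 2.99 in globular replicates 1 and 2 (percentiles 18.8 and 69.4). They were thus strong in globular replicate 1 only, whereas the members were weak in both heart lists (percentiles 64.3 and 76.5). The 910 shared regions with a globular-only and no heart-only region within 2000 bp had a median fold of 8.22 and 7.03 in heart replicates 1 and 2. In globular replicates 1 and 2 their median fold was 6.18 and 4.67. Their widths were 682 and 571 bp in the heart libraries and 506.5 and 577 bp in the globular libraries. In globular replicate 1 they were thus above the neighbours of heart-only regions in fold and width (5.70 and 468 bp), and in both heart libraries they were below them. Globular replicate 2 showed a smaller difference of the same direction, 4.67 against 4.53 in fold and 577 against 568 bp in width.

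The heart peaks of a neighbour reached about as far on the side of the member as on the other. In 2301 pairs in which the neighbour had 1 member and shared regions lay on 1 side, the neighbour's peaks reached a median of 332.5 bp from the mean summit on the side that faced the member and 335.25 bp on the other side in heart replicate 1. In heart replicate 2 they reached 291.5 and 298.5 bp. In globular replicates 1 and 2 they reached 232 and 272.5 bp on the facing side and 240.5 and 279.75 bp on the other. The heart peaks reached farther than the globular peaks by a median of 53 bp on the facing side and 51 bp on the other. Wider heart peaks were not particular to these neighbours. Over all shared regions the median width was 673 and 576 bp in heart replicates 1 and 2, against 472 and 569 bp in globular replicates 1 and 2. Heart replicate 2 and globular replicate 2 were thus nearly equal in width. Lists of different libraries may also rest on different backgrounds.

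Among the members ranked by the worse of their heart percentiles, the first was chr15:1600077-1600630. Its fold was 18.9 in heart replicate 1 and 13.5 in heart replicate 2, and its widths were 554 and 469 bp. Its neighbour, 1162 bp away at chr15:1601793-1602347, was weak in the heart libraries, with a fold of 3.75 and 2.94, and had 6.89 and 2.21 in globular replicates 1 and 2. The member had 5.03 and 4.61 times the fold of its neighbour, the highest of all members by the smaller of the 2 ratios. No globular peak lay nearer to the member than this neighbour.

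The second, chr4:6701981-6702502, lay beside a strong site. Its fold was 15.8 and 12.5, and that of its neighbour, 1526 bp away at chr4:6698409-6700454, was 26.0 and 21.04 in the heart libraries and 20.02 and 15.3 in the globular libraries. The third, chr8:9166321-9166883, had a fold of 13.1 and 10.04, against 7.17 and 5.08 for its neighbour 1664 bp away. It was 1.82 and 1.98 times as strong as this neighbour.

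The member at chr18:52760459-52760950 had a fold of 15.4 and 9.36 and lay 360 bp from the edge of its neighbour (chr18:52758612-52760098). The neighbour measured 1485 and 1287 bp in the heart libraries, against 539 and 659 bp in the globular libraries, so the nearest globular peak was 1173 bp from the member. The other strong members were chr1:53823398-53824494, chr6:2231073-2231785, chr9:4124369-4124895, chr12:38004358-38005053, chr13:30934482-30934986 and chr20:36375825-36376692. Over these 6 the fold was 8.88 to 12.6 in replicate 1 and 7.90 to 9.17 in replicate 2. The chromosome 6 region had a globular peak 74 bp away that did not overlap it.

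The strongest neighbour of a member was chr1:52469357-52471662, with a fold of 35.7 and 31.5 in heart replicates 1 and 2 and of 32.1 and 21.2 in globular replicates 1 and 2. Its member, chr1:52471966-52472251, had a fold of 3.08 and 3.82 and a width of 272 and 271 bp. The member's percentiles were 90.9 and 72.02, among the weaker heart peaks. The chromosome 20 member named above lay 57 bp from a neighbour of fold 31.7 and 29.1 in the heart libraries and 26.6 and 21.6 in the globular libraries, with 3 shared regions within 2000 bp. The next neighbours by strength were chr12:36164453-36165815, chr14:42704519-42705539 and chr6:16793075-16794768. Their members had a fold of 5.18 to 6.98 in replicate 1 and 3.23 to 7.61 in replicate 2.

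Some members outdid a neighbour that ranked higher in the globular lists than in the heart lists. These pairs come from the 5 highest ratios of member fold to neighbour fold in the heart lists. That choice itself favours neighbours with a low heart rank. The members chr7:7017977-7018437 and chr7:7016753-7017228 lay 406 and 1615 bp from a single neighbour (chr7:7018844-7019412). The first had a fold of 11.3 and 7.61 and the second of 8.52 and 6.25 in heart replicates 1 and 2. The neighbour had 3.08 and 3.13 there, near the bottom of both lists (percentiles 91.6 and 91.9), against 10.2 and 4.10 in globular replicates 1 and 2 (percentiles 14.2 and 40.1). This neighbour ranked higher in both globular lists than in either heart list. The member chr10:3025788-3026211 had a fold of 8.50 and 7.12 in heart replicates 1 and 2. Its neighbour 931 bp away (chr10:3027143-3027633) had 4.51 and 3.33 in the heart libraries (percentiles 57.6 and 87.0). In the globular libraries that neighbour had 14.5 and 4.09 (percentiles 6.13 and 36.8). The chromosome 8 member named above, also among the 5, went the other way. Its neighbour had percentiles of 30.6 and 48.8 in the heart lists and 65.5 and 49.5 in the globular lists.

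Shared regions with 3 members were found 8 times. The strongest by its worst percentile was chr3:41461828-41463570, with a fold of 17.3 and 16.9 in the heart libraries and 10.9 and 5.98 in the globular libraries. Its members lay 1982 and 904 bp away at lower coordinates (chr3:41459444-41459845 and chr3:41460188-41460923) and 837 bp away at higher coordinates (chr3:41464408-41464850), with a fold of 3.36 to 4.41 in replicate 1 and 2.94 to 4.30 in replicate 2. The next 4 were chr6:45012245-45013004, chr9:47783003-47783767, chr11:24775531-24776391 and chr15:10004163-10004856. The first 3 of these 5 had a heart fold of 11.6 or more, while the chromosome 11 region had 5.75 and 3.73.

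At the limit of distance, the last members inside it lay 1997 to 1999 bp from a shared region and the first heart-only regions outside it 2001 to 2003 bp. The 3 members had a fold of 3.75 to 5.18 in replicate 1 and 3.23 to 4.40 in replicate 2. The 3 regions outside had 2.75 to 10.5 in replicate 1 and 3.13 to 8.97 in replicate 2. Coordinates are the files' own, 1-based, and the genome build behind them is not given in the sources used here, so the regions were not assigned to genes and no sequence is shown.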

How the data were processed

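Of 8 libraries, the 4 ChIP libraries (2 heart, 2 globular) come with 1 peak list per library, with no list of pooled replicates. The 4 inputs were not analysed here as samples. The submitters' processing notes name MACS2, SAMtools 0.1.18 and Bowtie 0.12.7. Their roles and settings, the genome build, the controls and the threshold are not stated in these sources. The deposited fold is a ratio, the enrichment at the summit over local background, and the deposited −log10 p and −log10 q belong to the summit. The lowest −log10 q was 2.00 to 2.04. The score column that the authors deposited equals 10 times −log10 q, rounded down, and was not used further.

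From these lists, peaks of different libraries overlapping by 50% of the shorter were joined, and distances between region edges were computed. Of several peaks of a library in a region, the strongest was used. Percentiles rank a list by −log10 p. Depth is unknown, and no test was run. The joining and distances were tested on simulated data in which shared sites lay far apart. The simulation held no peaks of a single library and no crowded shared sites, so it does not cover those cases. Regions are named by rule: the 10 strongest members, the 5 strongest neighbours, the 5 highest ratios, the 5 neighbours with the most members, and 3 on either side of the limit. The members, lists and comparisons were chosen with earlier results of these data known. Python 3.11.15, numpy 2.4.6, pandas 2.3.3 and scipy 1.17.1 were used. The alternatives tried were other joining rules, distances, thresholds and list lengths, and leaving out each library.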

Additional observations from a re-analysis of the deposited data

How the results depend on the processing

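No paired analysis was possible because the results come from no test, and no replicate number links the stages. The number of flanking regions, 3073, was 1938 with a limit of 1000 bp, 1740 with an equal number of peaks from each list, and 4319 to 6876 without single libraries. Their share of heart-only regions, 33.2%, was 30.6% with summits within 100 bp, 20.9% and 47.4% with limits of 1000 and 4000 bp, 31.4% with −log10 q of at least 5, 30.9% with equal numbers and 35.2% to 39.3% without single libraries. Equal numbers, which remove weaker heart peaks, moved the mean fold of the flanking regions to 4.39 and the ratio to the neighbour to 0.528. Without single libraries these were 3.52 to 4.26 and 0.445 to 0.573.

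The heart excess of the neighbours over shared regions with no heart-only region near stayed above 0 under every alternative. These alternatives, and those for the differences below, were chosen after seeing the data. In fold it was 0.43 with summits within 100 bp, 0.21 at 4000 bp and 0.29 to 0.62 without single libraries. In width it was 33.5 bp with summits, 25 bp at 4000 bp, 33 bp with equal numbers and 30.5 to 56 bp without single libraries. The globular difference, close to 0, changed sign: in fold it was 0.080 with summits, and -0.13 to 0 without single libraries. In width it was 10.5 bp with summits, 3 bp with the stricter q, 4 bp with equal numbers and -9 to 9 bp without single libraries. The fold of flanking minus farther regions was -0.097 to 0.011 without single libraries. The causes were not tested. With summits within 100 bp, 73.1% of the flanking regions were overlapped by a flanking region again, and with equal numbers 55.5%.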
